A study of Mus musculus with 3 samples.

Results

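The genes of the B cell receptor complex and its regulators were followed across 3 mouse RNA samples. The 9 listed genes were Cd79a, Cd79b, Ms4a1, Cr2, Cd22, Cd72, Btk, Blk and Pax5, out of 20659 genes that could be named on the array, and they were found by matching the RefSeq accession of each probe to a gene symbol. They were represented by 13 probes, each read apart: 5 genes had 1 probe and Btk, Cd72, Cr2 and Pax5 had 2 each. Gene expression was measured on single-colour Agilent arrays in female mice. The first sample was spleen treated with SiO2 (silica), the second was spleen that received SiO2 together with an agent named only 3TF-3C in the labels, and the third was normal liver, included as a positive control. The spleens were collected on day 82 and 5 samples were pooled per group in the series design, which does not say whether this holds for the liver. Strain and age were not found in the labels, and both spleen groups share the silica treatment, so no untreated spleen enters any value below. Each group had 1 array, so no test between groups was possible. Each ± is a technical error, propagated from the signal errors that the scanner software wrote for the spots, and holds nothing of the spread between animals. Precision is limited by the number of arrays.

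A B cell recognises antigen through membrane immunoglobulin, which has almost no cytoplasmic part of its own and signals through the paired chains CD79A and CD79B. Kinases of the Src family, SYK and BTK then carry the signal to phospholipase C gamma, while the complement receptor encoded by Cr2 lowers the threshold for activation and CD22 and CD72 raise it by recruiting phosphatases. The spleen is rich in B cells, which lie in follicles and in the marginal zone, whereas hepatocytes, the main cells of the liver, do not use this receptor.

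With 3TF-3C added to SiO2, all 9 genes were lower than with SiO2 alone, by less than 2-fold for every probe but 1, in a comparison where 69.0% of all probes were below 0. In liver 8 of them were lower still, and there Btk stood apart from the rest. Levels are given as the log2 processed signal minus the 75th percentile of the same array, so that a probe at 0 is as bright as that percentile. The scale does not allow levels of different probes to be compared, so only the same probe is compared between arrays. Of the 13 probes, 12 passed the software's call for signal well above background on all 3 arrays. The exception was the first Cd72 probe, whose liver spot was flagged as non-uniform and was left out. Between the spleens 1 of 13 member probes was at least 2-fold lower, against 1.49% of all 30582 probes measured on both arrays, and 0 were at least 2-fold higher (3.58% of all probes). The median over the member probes was -0.58 and that over all probes -0.18. In bulk tissue, fewer cells of a type and less RNA per cell cannot be told apart.

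The promoters of the genes at both ends of the liver comparison are shown because these members stood farthest apart there: Cd79a and Cd22 had the smallest differences between liver and SiO2 spleen and Btk the largest. RefSeq's promoter table on GRCm38.p6 held 6 of the 9 members, namely Cd79a, Cr2, Cd22, Cd72, Btk and Pax5. Each sequence is the 250 bases before the annotated start, read 5′ to 3′ on the gene's strand. Capitals mark matches to 5 motifs searched on both strands: the EBF core CCCNNGGG, a longer EBF motif that overlaps it (the core with T before it and A after it), the PU.1 motif GAGGAA, the octamer ATTTGCAT and the TATA box TATAAA.
Cd79a (chr7:24897247-24897496, plus strand): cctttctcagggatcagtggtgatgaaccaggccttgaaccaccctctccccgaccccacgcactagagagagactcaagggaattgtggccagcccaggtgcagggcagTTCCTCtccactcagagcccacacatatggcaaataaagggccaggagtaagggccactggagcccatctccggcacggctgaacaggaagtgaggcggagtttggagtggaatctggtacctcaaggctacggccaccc
Cd22 (chr7:30879029-30879278, minus strand): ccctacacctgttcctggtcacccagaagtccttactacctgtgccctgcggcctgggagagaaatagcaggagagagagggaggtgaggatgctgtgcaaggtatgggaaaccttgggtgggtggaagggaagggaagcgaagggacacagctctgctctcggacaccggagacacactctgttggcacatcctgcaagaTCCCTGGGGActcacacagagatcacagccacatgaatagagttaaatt
Btk (chrX:134583141-134583390, minus strand): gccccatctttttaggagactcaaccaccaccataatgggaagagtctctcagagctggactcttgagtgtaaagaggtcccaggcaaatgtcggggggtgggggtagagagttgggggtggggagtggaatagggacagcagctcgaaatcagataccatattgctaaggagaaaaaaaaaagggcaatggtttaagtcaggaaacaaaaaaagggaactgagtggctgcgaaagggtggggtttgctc

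The Cd79a window held 1 match to the PU.1 motif, 140 bases before the start, and Cd72, not printed, held 1 at 47 bases. Such a match was present in 23.3% of the 32841 promoter windows of this length. The Cd22 window held the longer EBF motif 49 bases before the start, which 0.780% of all windows held, and 11.8% held the core. The windows of Btk, Cr2 and Pax5 held none of the 5 motifs, of which the octamer was present in 1.602% and the TATA box in 12.4% of all windows. A match is a run of letters and not a measured binding site. The printed windows were picked by the liver comparison, and whether the motifs go with expression was not tested.

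The probes of the receptor's signalling chains differed in how far liver lay below the SiO2 spleen. Cd79a, the immunoglobulin alpha chain, was at -1.20 in the SiO2 spleen, -1.77 in the SiO2-3TF-3C spleen and -1.49 in liver. It was the only member whose lowest level was in the SiO2-3TF-3C spleen and not in liver. Its partner Cd79b, the immunoglobulin beta chain, was at 5.49, 5.04 and 4.33 in the same order. Between the spleens both were lower by similar amounts, at -0.57 ± 0.20 for Cd79a and -0.45 ± 0.20 for Cd79b. In liver against the SiO2 spleen Cd79a differed by -0.29 ± 0.20 and Cd79b by -1.16 ± 0.20, a gap of 0.87 ± 0.29 between the partners. Each was read by 1 probe, so the gap has no second probe behind it.

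**Figure D1:**
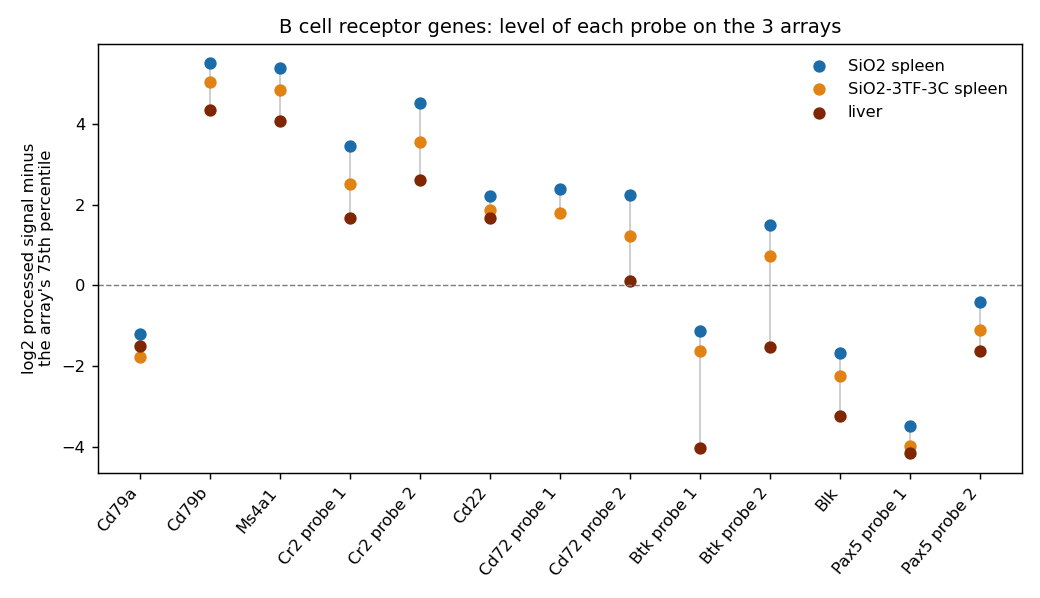
Level of each of the 13 member probes on the 3 arrays, as log2 processed signal minus the array's 75th percentile (vertical axis, dashed line at 0), with 1 point per array and probes of the same gene side by side. The SiO2 spleen is highest for every probe, liver is lowest for all but Cd79a, and the first Cd72 probe has no liver point because that spot was flagged.

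Among the surface molecules, Ms4a1, which encodes the B cell antigen CD20, was at 5.38 in the SiO2 spleen, 4.82 in the SiO2-3TF-3C spleen and 4.05 in liver. It differed by -0.56 ± 0.20 between the spleens and by -1.33 ± 0.20 between liver and the SiO2 spleen. Cr2, the complement receptor of mature and marginal zone B cells and of follicular dendritic cells, had 2 probes. In the same order of arrays, the first was at 3.44, 2.51 and 1.66 and the second at 4.50, 3.56 and 2.60. Both probes placed the SiO2-3TF-3C spleen about midway between the SiO2 spleen and liver, at -0.93 ± 0.20 and -0.94 ± 0.20 against the SiO2 spleen, where liver was at -1.78 ± 0.20 and -1.90 ± 0.20. The probes of Cr2 thus differed from each other by 0.01 ± 0.29 between the spleens and by 0.12 ± 0.29 in liver. Of all probes measured on both spleen arrays, 1.93% and 1.86% were lower than the Cr2 probes.

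The inhibitory receptors differed in the size of their differences. Cd22, a sialic acid binding lectin that dampens receptor signalling, was at 2.20 with SiO2, 1.86 with SiO2 and 3TF-3C, and 1.66 in liver. Its differences from the SiO2 spleen were among the smallest of the members, -0.34 ± 0.20 in the SiO2-3TF-3C spleen and -0.55 ± 0.20 in liver. Cd72, the receptor for CD100, was read by 2 probes, the first at 2.38 and 1.79 in the spleens and the second at 2.24, 1.23 and 0.12 on the 3 arrays. The second probe was the 1 member probe past 2-fold between the spleens, at -1.01 ± 0.20, while the first was at -0.60 ± 0.20, so the probes differed by 0.41 ± 0.29. The second probe was at -0.94 with quantile normalization and at -0.90 with normexp background correction, short of 2-fold in both. In liver the second Cd72 probe differed by -2.12 ± 0.20 from the SiO2 spleen, and the first was at -2.02 ± 0.20 when its flagged spot was kept.

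**Figure D2:**
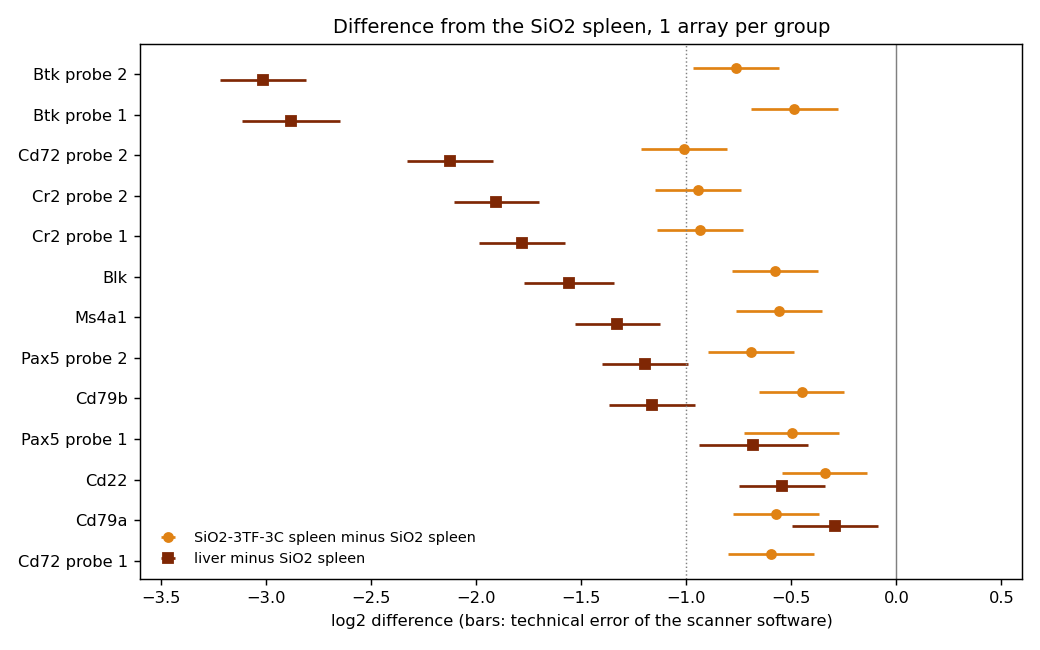
Log2 difference from the SiO2 spleen for each member probe, circles for the SiO2-3TF-3C spleen and squares for liver, ordered by the liver difference, with bars for the technical error and a dotted line at 2-fold lower. The circles lie between -1.01 and -0.34, whereas the squares spread from -3.01 for the second Btk probe to -0.29 for Cd79a.

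The kinases held the largest difference. Btk, the Tec family kinase whose mutation causes X-linked agammaglobulinaemia in humans and the xid defect in mice, had 2 probes. The first was at -1.13 in the SiO2 spleen, -1.61 in the SiO2-3TF-3C spleen and -4.01 in liver, and the second at 1.48, 0.72 and -1.53. For both probes the SiO2-3TF-3C spleen was therefore closer to the SiO2 spleen than to liver, and liver was far below both spleens. Between the spleens Btk differed by -0.49 ± 0.20 and -0.76 ± 0.20, within the range of the other members. Between liver and the SiO2 spleen it differed by -2.88 ± 0.23 and -3.01 ± 0.20, which is 7.38-fold and 8.08-fold lower. Blk, a Src family kinase largely restricted to B cells, was at -1.66 with SiO2, -2.24 with 3TF-3C added and -3.22 in liver, a difference of -0.58 ± 0.21 between the spleens and of -1.56 ± 0.21 in liver.

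The departure of Btk on the liver array was seen with each of its probes. The probes differed from each other by 0.13 ± 0.31 in liver against the SiO2 spleen, and by 0.28 ± 0.29 between the spleens. Every other member probe lay between -2.12 and -0.29 in the liver comparison, so the higher Btk probe was 0.76 ± 0.31 below the lowest of them, the second Cd72 probe. The mean of the Btk probes was 1.69 below the median of the other members. Ranked from the lowest among 28814 probes well above background on both arrays, the Btk probes were at places 18 and 12. Probes that did not pass the background call in liver were not ranked, so larger losses can be missing from this order. Their processed intensities were 259.9 and 1588 with SiO2, 168.0 and 846 with 3TF-3C added, and 24.1 and 134.8 in liver, where the median negative control spot was at 1.85. Neither spot was flagged or saturated on any array. The spots lay apart, in rows 476 and 261 of the array, and the other spots within 5 rows and 5 columns had median liver differences of -0.04 (92 probes) and -0.32 (86 probes), with none as low as the Btk probe they surrounded (lowest -1.98 and -2.31).

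The distance of the higher Btk probe from the lowest other member was -0.76 in the setting used here. It was the same with scaling to the median, the filter for probes well above background on all 3 arrays and flagged spots kept. Those settings left the 2 probes unchanged relative to each other, so they add no support. Both Btk probes stayed lowest with quantile normalization (distance -0.84) and with normexp without offset (-0.48). They did not with normexp background correction at an offset of 50 (0.51). There the first Btk probe was at -1.45 and stood 0.51 above Cd72, the lowest other member, while the second stayed the lowest at -2.59. The offset is larger than the intensity of the first probe in liver, and with normexp and no offset, a setting chosen after the data were seen, the probes were at -2.54 and -2.89. The cause of the change with the offset was not tested. In the authors' deposited series table, which lists 8 of the 13 probes, the second Btk probe differed by -3.02 and the first is not listed.

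**Figure D3:**
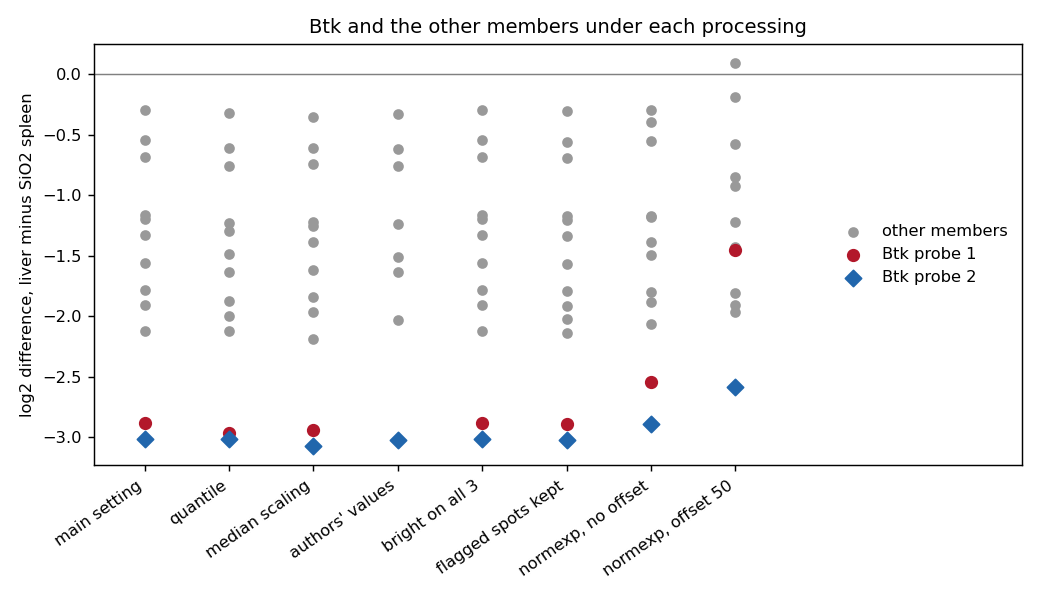
Log2 difference between liver and SiO2 spleen for the 2 Btk probes (coloured) and the other member probes (grey) under each processing. Both Btk probes are below all other members in every column where both are shown except normexp with an offset of 50, in which the first Btk probe sits at -1.45 among the others.

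Pax5, the factor that commits cells to the B lineage and is shut off in plasma cells, had 2 probes that were lowest in liver. Going from SiO2 to 3TF-3C added and to liver, the first was at -3.47, -3.97 and -4.15 and the second at -0.42, -1.11 and -1.61. The probes differed between the spleens by -0.50 ± 0.23 and -0.69 ± 0.20, and in liver against the SiO2 spleen by -0.68 ± 0.26 and -1.20 ± 0.21. The first probe turned to 0.09 in that liver comparison with normexp at an offset of 50, in which its intensity of 22.0 in liver is below the offset.

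In liver against the SiO2 spleen, 9 of the 12 member probes with a value were at least 2-fold lower, against 16.5% of 28814 probes, and 0 were at least 2-fold higher (12.6% of probes). The median of the members was -1.44 and that of all probes -0.16. The 3 probes short of 2-fold were those of Cd79a and Cd22 and the first of Pax5. For the 9 probes past 2-fold in liver, the difference of the SiO2-3TF-3C spleen was 16.8% to 58.0% of the liver difference on the log2 scale. Among them it was lowest for the Btk probes (16.8% and 25.4%) and highest for the second Pax5 probe. The probes short of 2-fold had larger shares, 62.6% for Cd22, 73.3% for the first Pax5 probe and 196% for Cd79a. This share divides by the liver difference, which is largest for Btk, so its low share is no separate result. Both differences share the SiO2 spleen array, so they are set side by side as values only. By the authors' deposited table, 4 of the 7 member probes it shares with this comparison were at least 2-fold lower, with a median of -1.23. Of the 18923 probes it shares with this comparison, 18.7% were at least 2-fold lower, with a median of -0.25.

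Directly between the SiO2-3TF-3C spleen and liver, 3 of 12 member probes were at least 2-fold higher in the spleen, namely both Btk probes at 2.40 ± 0.23 and 2.25 ± 0.20 and the second Cd72 probe at 1.11 ± 0.20, against 9.72% of 29278 probes. None was at least 2-fold lower (14.1% of probes). Cd79a was the 1 probe on the other side of 0, at -0.28 ± 0.21, and the first Pax5 probe alone lay within 1 technical error of 0 (0.18 ± 0.26), with Cd22 just at it (0.20 ± 0.20). The count depended on the scaling, with 8 probes past 2-fold under quantile normalization and 5 with scaling to the median. The share of all probes at least 2-fold higher in the spleen rose as well, to 12.03% and 10.99% in these settings.

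Further genes of the pathway were taken from lists, with each gene read by its brightest probe. Between the spleens 0 of 20 receptor signalling genes were at least 2-fold apart, against 1.13% lower and 4.26% higher over all 16874 genes, and all 20 were below 0, as were 67.2% of all genes. Their median was -0.49, against -0.16 over all genes. The lowest were Pik3cd, the leukocyte phosphoinositide kinase subunit, at -0.80, Syk at -0.79 and Rasgrp3, a Ras activator, at -0.72. In liver against the SiO2 spleen 15 of 20 were at least 2-fold lower and 0 higher, against 17.3% and 14% of 16117 genes, with a median of -1.31 and the lowest values for Pik3cd at -2.004, Syk at -1.77 and Vav1, an exchange factor, at -1.68. In the setting used here, even the lowest of the list, by its brightest probe, was above both Btk probes in this comparison. Other probes of the listed genes were not compared with Btk.

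Inhibitory receptors and phosphatases had a median of -0.48 between the spleens, with 0 of 11 past 2-fold, and of -1.15 in liver, where 6 of 11 were past 2-fold, all of them lower. Cd5 was at -0.65 and -1.83 in these comparisons, the Fc receptor-like gene Fcrl1 at -0.76 and -1.77, and Siglecg, a relative of Cd22, at -0.56 and -1.26. Ptpn6, the phosphatase SHP-1 that Cd22 and Cd72 recruit, was at -1.60 in liver. Of 15 B cell transcription factors 0 were past 2-fold between the spleens (median -0.48) and 9 were at least 2-fold lower in liver (median -1.21). Ebf1, which acts with Pax5 early in the lineage, was the lowest in both, at -0.92 and -1.997. Spi1, which encodes PU.1, was at -0.83 between the spleens and Bach2 at -0.74, while Pou2af1 and Ikzf1 were at -1.76 and -1.66 in liver.

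Other B cell surface genes were read in the same way. Between the spleens 1 of 19 was at least 2-fold lower, H2-Ob, a chain of the MHC class II modulator of B cells, at -1.04 ± 0.20, and the median was -0.56. In liver 16 of 19 were at least 2-fold lower (median -1.51), the lowest being Cd40 at -2.29, Vpreb3 at -1.82 and H2-Ob at -1.81. Kinases of the Tec, Src and Syk families other than Btk and Blk had a median of -0.45 between the spleens, with 0 of 15 past 2-fold, and of -1.21 in liver, with 9 of 14 lower and 2 higher. The lowest of them in liver, Fgr at -1.80 ± 0.20, Syk and Txk at -1.72, remained above both Btk probes in the setting used here. Lyn, Fyn and Syk belong to both the signalling and the kinase list.

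**Figure D4:**
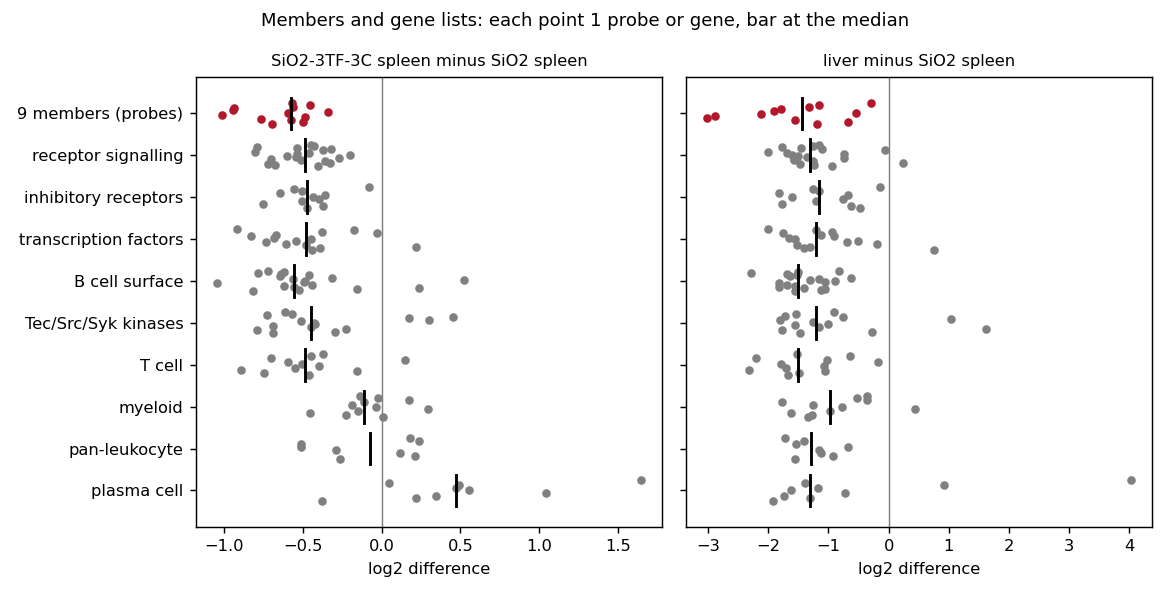
Log2 differences for the member probes (red) and for the genes of each list (grey), with a bar at the median, on the left for the SiO2-3TF-3C spleen and on the right for liver, both against the SiO2 spleen. On the left the B cell and T cell lists centre between -0.58 and -0.45, myeloid and pan-leukocyte genes near 0 and plasma cell genes at 0.47, whereas on the right all of them centre between -1.51 and -0.97.

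Markers of other cells were read on the same arrays. T cell markers had medians of -0.48 between the spleens and -1.50 in liver, where 10 of 12 were past 2-fold lower (0 between the spleens), and Lat was at -0.89 and -2.32. Pan-leukocyte genes had a median of -0.07 between the spleens, which became 0.05 under quantile normalization, and of -1.28 in liver, where 6 of 8 were lower, among them Ptprc at -1.72. Markers of myeloid cells, which also express Btk, had medians of -0.11 and -0.97, and in liver 5 of 11 were past 2-fold lower, as were 0 between the spleens. The myeloid median between the spleens was 0.09 under quantile normalization. The lowest myeloid values in liver were Itgam at -1.78 and Spic at -1.63. Plasma cell markers went the other way between the spleens, with a median of 0.47, Sdc1 at 1.65 and Derl3 at 1.05 past 2-fold of 9 and 0 lower, although Sdc1 was also 4.04 higher in liver. In liver the plasma cell median was -1.31. Summed over each list, in multiples of the array's 75th percentile, T cell markers were at 59.3 with SiO2, 44.3 with 3TF-3C added and 23.9 in liver, and in that order myeloid markers were at 139.9, 130.7 and 78.5, pan-leukocyte markers at 103.3, 88.0 and 52.9, and plasma cell markers at 65.7, 90.9 and 63.1. Each sum weighs its brightest probes most. The brightest plasma cell marker in liver, Xbp1 at 5.42, was 0.92 higher there than in the SiO2 spleen, whereas 7 of the 9 plasma cell markers were lower. The plasma cell sums therefore do not show similar amounts of these markers in both. None of the genes in these lists was below background on any array. Their part in the members' differences was not tested.

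The tissue labels were read against hepatocyte markers. Their summed level was 1.51 with SiO2, 248.8 with 3TF-3C added and 605.6 in liver, and with SiO2 alone 2 of the 10 did not pass the background call. All 8 measured on both spleen arrays were past 2-fold, all higher with 3TF-3C added, with Alb at 9.996 and Ahsg at 10.04. Both hepatocyte and B cell genes were thus present on the SiO2-3TF-3C spleen and liver arrays, and Cd79b and Ms4a1 remained at 4.33 and 4.05 above the liver array's 75th percentile on the log2 scale. The labels' RNA protocol names blood and globin depletion and does not describe the handling of spleen or liver. The part of hepatocyte RNA in the members' differences was not tested.

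Genes with the most similar pattern were ranked by their distance from a member over the differences of the SiO2-3TF-3C spleen and liver from the SiO2 spleen, among 16040 other genes well above background on all 3 arrays. Nearest to the first Btk probe were Htr7 at a distance of 0.07, Ap2b1 at 0.09, Zmiz2 at 0.15, H2bu2 at 0.28 and Prrx1 at 0.34, and 14 genes lay within 0.5. Nearest to the second Btk probe, ranked in addition after the data were seen, were Myo5c at 0.18, Zmiz2 at 0.25, H2bu2 at 0.26, Ap2b1 at 0.30 and Dus4l at 0.31, with 9 genes within 0.5. Nearest to the median of the other 8 members were Spns3, 2410006H16Rik, Dgkd, Ankrd16 and Siglecg, at distances from 0.01 to 0.02, and 2307 genes lay within 0.5. With 3 arrays this likeness rests on 2 differences per gene and is a description only.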

How the data were processed

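RNA of 3 samples was hybridised to Agilent mouse arrays with Cy3. Each deposited scanner file holds linear fluorescence intensity per spot, background-subtracted and detrended; per the file headers it was extracted with Feature Extraction 11.0.1.1 (design 026655, build mm9), a version that differs from the 9.1 of the submitters' processing notes. The authors' deposited series table holds log2 values (r from 0.993 to 0.996 with the log2 intensity of the same array); how it was normalized was not stated in the sources used here.

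Control spots and spots flagged as outliers (182, 283 and 469 of 43020) were left out, spots of a probe were averaged on the log2 scale, and each array's 75th percentile over the 39112 probes with a value on all 3 arrays was subtracted (intensities 569, 515 and 390). On the 3 arrays 79.9%, 81.3% and 77.2% of spots were well above background, and 0 were saturated. Names came from RefSeq accessions (GRCm38.p6), which matched 69.1% of 39429 probes; no coordinates of that table are printed beside array values. Technical errors combine the scanner software's signal errors. With 1 array per group no test was run: probes measured on both arrays were described by a 2-fold rule. Median signals stood in for mean signals in normexp (limma 3.58.1), since the files have no mean signal. Scaling and calls were run on simulated arrays with known changes, equally many up and down, in probes well above background. Their noise was below the technical errors here, so this checks the code and not how well the scaling suits these arrays.

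The members, the lists and the rule for naming genes (all members; per list the 3, or for marker lists 2, largest differences in each comparison and those past 2-fold between the spleens; the 5 nearest patterns) were chosen with earlier results of these data known. Lyn and Fyn are named outside that rule, as members of 2 lists.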

Additional observations from a re-analysis of the deposited data

How the results depend on the processing

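The members' direction against the SiO2 spleen was kept under quantile normalization, scaling to the median, the authors' deposited values, a filter for probes well above background on all 3 arrays, and flagged spots kept. With normexp at an offset of 50, the first Pax5 probe alone turned, in the liver comparison (0.09) and against the SiO2-3TF-3C spleen (-0.16). The count of 1 member probe at least 2-fold lower between the spleens became 0 with normexp with and without offset, quantile normalization and the mean over the probes of a gene. It was also 0 in the authors' values, which do not list that probe, the second of Cd72, so that this count is no changed result. The share of all probes at least 2-fold lower between the spleens was 1.49% in the setting used here. It was 0.405% with normexp at an offset of 50, 1.02% without offset, 1.26% with quantile normalization and 1.35% in the authors' values. In liver against the SiO2 spleen, the authors' values, which list fewer probes, gave 4 probes and a median of -1.23, where 18.7% of all probes were at least 2-fold lower. Between the SiO2-3TF-3C spleen and liver, the count of 3 higher probes became 8 with quantile normalization and 5 with scaling to the median. In these settings 12.03% and 10.99% of all probes were at least 2-fold higher in the spleen, against 9.72% in the setting used here. Without Btk the count was 1. The members' median of 0.81 became 1.07 with quantile normalization and 0.51 in the authors' values. The distance of the higher Btk probe from the lowest other member went from -0.76 to 0.51 with normexp at an offset of 50, which exceeds the probe's intensity in liver. For that distance the authors' values give none, since they list 1 Btk probe. The median of all probes between the SiO2-3TF-3C spleen and liver was -0.05, and 0.07 with quantile normalization; with normexp at an offset of 50 it went from -0.18 to -0.06 between the spleens and from -0.16 to 0.09 in liver against the SiO2 spleen. The setting without offset was chosen after the data were seen. The cause of the changes under these settings, normexp included, was not tested. No paired analysis was possible because each group has 1 sample.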
